A study of Mus musculus with 7 samples.

Results

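The 9 complement genes described here were C1ra, C1s1, C2, C3, C4b, Cfb, Cfp, C3ar1 and C5ar1. They were chosen by name, with the C1q genes left aside, and all 9 were found among the 22629 rows of the count table and passed the filter on low counts. Complement is a cascade of plasma proteases in which the classical, lectin and alternative routes converge on the cleavage of C3. The fragments that are released, C3a and C5a, signal through receptors on myeloid cells, and the larger fragments coat surfaces and start the terminal pathway. The liver makes most of the circulating components, and macrophages, fibroblasts and epithelial cells can transcribe several of them in tissues.

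The genes were measured by bulk RNA-seq of 7 s/c tumors of mouse pancreatic ductal adenocarcinoma (PDA), taken 2 weeks after C57BL/6 hosts were inoculated with 1242 KPC cells, a mouse PDA line that carries Pdx1-Cre. The sgScramble group had 3 tumors (1, 4 and 5), whose cells carried Cas9 with a scrambled guide, and the icOVA group had 4 tumors (15, 16, 18 and 2), whose sgScramble cells also expressed intracellular ovalbumin, a foreign antigen, from a doxycycline-inducible vector. By the study's methods, ovalbumin was induced with doxycycline food from the day of inoculation. Tumors of ovalbumin-inducible cells were started with more cells than the number given for s/c tumors in general. The labels give no age of the hosts. Neither they nor the study's methods say whether the sgScramble tumors here carried the vector, empty or not induced, or were exposed to doxycycline. Ovalbumin, vector, drug, number of cells inoculated and the derivation of the cell line therefore cannot be told apart. The comparison asks how complement transcripts differ between the sgScramble and the icOVA tumors. The libraries held 30904855 to 37510591 counts each. OVA was read at 85 to 151 counts in the sgScramble tumors and at 3413 to 10750 in the icOVA tumors. The source of the OVA counts in the sgScramble tumors was not tested. Ptprc, which encodes the pan-leukocyte protein CD45, had 141 ± 30.7 CPM (read counts scaled to a common library size, mean ± SD, n = 3) in the sgScramble tumors and 298 ± 49.95 (n = 4) in the icOVA tumors (log2 fold change 1.08, adjusted p = 0.0271 by edgeR, SE 0.18).

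Values below are CPM after TMM scaling of the libraries. Log2 fold changes are icOVA over sgScramble from the edgeR quasi-likelihood test, with p adjusted by the Benjamini-Hochberg method over the 17489 genes tested and a threshold of 0.05. Cfp and C5ar1 were higher in the icOVA tumors, none of the 9 genes was lower, and 7 did not pass the threshold. Among all genes tested, 3.36% passed as higher and 2.54% as lower. At an unadjusted p below 0.05, 5 of the 9 were higher and C3 was lower, against 13.4% and 13.8% of all genes tested, and DESeq2 and limma-voom also called none of the 9 lower. For Cfp, C3ar1 and C5ar1 every icOVA tumor was above every sgScramble tumor, a pattern shown by 11.3% of all genes tested, and for none of the 9 was every icOVA tumor below, as it was for 13.3% of all genes. The median log2 fold change was 0.65 over the 9 genes and -0.0048 over all genes tested. In bulk RNA, fewer cells of a type and less RNA per cell cannot be told apart.

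**Figure D1:**
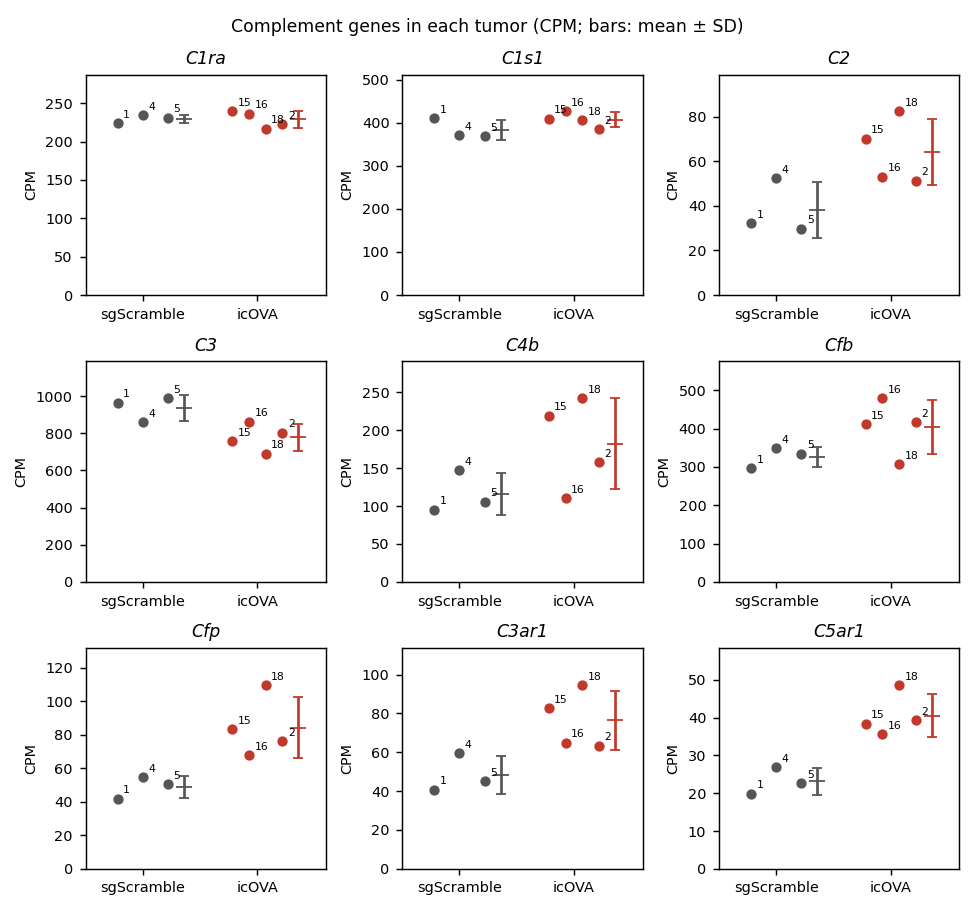
CPM of each of the 9 complement genes in each tumor, sgScramble and icOVA, with the group mean and SD. The groups are separate for Cfp, C3ar1 and C5ar1, whereas those of C1ra, at 217 to 239.5 CPM, lie on top of each other.

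The sequences before the RefSeq start sites of the 3 genes whose groups did not overlap are shown first, because these are the members that stood higher in every icOVA tumor. They are from RefSeq on GRCm38.p6, which had entries for 6 of the 9 members and none for C2, C4b and Cfb. Capitals mark a match to a motif on either strand. Bases inside an annotated exon were left out, and where these split a sequence only the longest remaining run is printed. The C5ar1 stretch, of 174 bases, lies before the start of the shorter C5ar1 transcripts and inside the first intron of the longer ones, so that it is part of the gene span given for C5ar1.
Cfp (chrX:20931556-20931805, minus strand): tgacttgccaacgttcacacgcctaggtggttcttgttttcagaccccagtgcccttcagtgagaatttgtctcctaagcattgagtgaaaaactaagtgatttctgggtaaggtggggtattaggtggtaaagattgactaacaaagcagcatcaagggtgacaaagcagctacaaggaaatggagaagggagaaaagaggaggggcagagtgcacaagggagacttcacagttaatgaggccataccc
C3ar1 (chr6:122856162-122856407, minus strand): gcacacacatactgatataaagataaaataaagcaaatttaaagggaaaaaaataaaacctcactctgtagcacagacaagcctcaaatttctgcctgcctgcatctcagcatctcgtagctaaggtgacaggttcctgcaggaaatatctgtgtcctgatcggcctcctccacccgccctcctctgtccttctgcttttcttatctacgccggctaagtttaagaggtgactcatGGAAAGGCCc
C5ar1 (chr7:16259339-16259512, minus strand): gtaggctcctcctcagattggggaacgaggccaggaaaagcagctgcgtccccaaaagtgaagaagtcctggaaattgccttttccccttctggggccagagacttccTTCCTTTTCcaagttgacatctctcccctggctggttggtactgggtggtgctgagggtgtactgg
Both strands were searched for GAAANNGAA (the core of the ISRE bound by interferon regulatory factors) and GGNNTTTCC (a kappa B core). The C5ar1 sequence held 1 ISRE core, the C3ar1 sequence held 1 kappa B core, and the Cfp sequence held neither. Of 32851 promoters of 250 bases in the RefSeq table, 7.13% held the ISRE core and 4.93% the kappa B core. For the members too the search covered 250 bases, of which 174 are printed for C5ar1 and 246 for C3ar1. Both matches lie in the printed bases. The matches are a description of these letters and not of binding.

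Among the receptors, C5ar1 (7:16246743-16259540, minus strand, GRCm38), which encodes the receptor for C5a that draws neutrophils and macrophages, was at 19.9, 26.9 and 22.7 CPM in sgScramble tumors 1, 4 and 5 and at 38.4, 35.6, 48.7 and 39.4 CPM in icOVA tumors 15, 16, 18 and 2. The lowest icOVA tumor was above the highest sgScramble tumor. The means were 23.2 ± 3.53 CPM (SD, n = 3) and 40.5 ± 5.67 CPM (n = 4), and the log2 fold change was 0.81 (adjusted p = 0.0284 by edgeR, SE 0.14). C3ar1 (6:122847138-122856161, minus strand), the receptor for C3a, was at 40.7, 59.5 and 45.2 CPM in the sgScramble tumors and at 82.6, 64.9, 94.7 and 63.5 CPM in the icOVA tumors. Its groups also did not overlap, but the gap between sgScramble 4 and icOVA 2 was small. The log2 fold change of C3ar1 was 0.66 (SE 0.18, 95% interval 0.23 to 1.08), with an adjusted p of 0.0743 by edgeR that missed the threshold.

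Of the alternative pathway genes, Cfp (X:20925454-20931555, minus strand) encodes properdin, which stabilizes the C3 convertase and is made by myeloid cells. It was at 41.7, 54.5 and 50.5 CPM in the sgScramble tumors and at 83.2, 67.9, 109.6 and 76.1 CPM in the icOVA tumors, so that the groups did not overlap. Its log2 fold change was 0.78 (adjusted p = 0.0427 by edgeR, SE 0.17), with means of 48.9 ± 6.51 CPM (n = 3) and 84.2 ± 18.05 CPM (n = 4). Cfp and C5ar1 passed the threshold in 3 of the 7 fits that left out 1 tumor. Neither passed without sgScramble 1, sgScramble 5, icOVA 15 or icOVA 2. Without sgScramble 1, sgScramble 5 or icOVA 15, 0 of all genes tested passed in either direction. Without icOVA 2, 6 of all genes passed as higher and 2 as lower. Over all 7 fits the log2 fold changes were 0.63 to 0.88 for Cfp and 0.71 to 0.94 for C5ar1. Cfb (17:34856374-34862518, minus strand) encodes factor B, the protease of the alternative pathway convertase. It was at 296, 348 and 334 CPM in the sgScramble tumors and at 412, 479, 308 and 417 CPM in the icOVA tumors, where icOVA 18 lay among the sgScramble values. The log2 fold change of Cfb was 0.31 (adjusted p = 0.218 by edgeR, SE 0.15), and without icOVA 18 it was 0.42 with an adjusted p of 0.0479.

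C2 and C4b encode the pieces of the C3 convertase of the classical and lectin pathways. C2 (17:34862604-34898265, minus strand) was at 32.2, 52.6 and 29.7 CPM in the sgScramble tumors and at 70.1, 53.1, 82.5 and 51.3 CPM in the icOVA tumors. sgScramble 4 reached the lower icOVA values, and the log2 fold change of 0.75 (adjusted p = 0.104 by edgeR, SE 0.25) did not pass. C4b (17:34728380-34743882, minus strand) was at 95.03, 147 and 106 CPM in the sgScramble tumors and at 219, 110, 242 and 158 CPM in the icOVA tumors. C4b was highest in icOVA 18 and icOVA 15, its groups overlapped, and its log2 fold change was 0.65 (adjusted p = 0.179 by edgeR, SE 0.28). Without sgScramble 4, C2 and C3ar1 also passed the threshold as higher.

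The proteases of the C1 complex stayed close together. C1ra (6:124512405-124523443, plus strand) encodes C1r, which activates C1s, and was at 224, 235 and 231 CPM in the sgScramble tumors and at 239.5, 236, 217 and 223 CPM in the icOVA tumors. The groups overlapped, with a log2 fold change of -0.0065 and a 95% interval of -0.16 to 0.14. C1s1 (6:124530345-124542359, minus strand) encodes C1s, which cleaves C4 and C2, and was at 411, 372 and 368 CPM in the sgScramble tumors and at 410, 427, 407 and 386 CPM in the icOVA tumors. Its log2 fold change was 0.085, with a 95% interval of -0.085 to 0.26 (adjusted p = 0.486 by edgeR).

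C3 (17:57203970-57228136, minus strand) encodes the component that all routes cleave. It was at 966, 859 and 990 CPM in the sgScramble tumors and at 759, 864, 691 and 803 CPM in the icOVA tumors. It was the member with the lowest fold change, although icOVA 16 was just above sgScramble 4. The means were 938 ± 69.2 CPM (n = 3) and 779 ± 72.7 CPM (n = 4), and the log2 fold change was -0.27 (adjusted p = 0.139 by edgeR, SE 0.10).

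**Figure D2:**
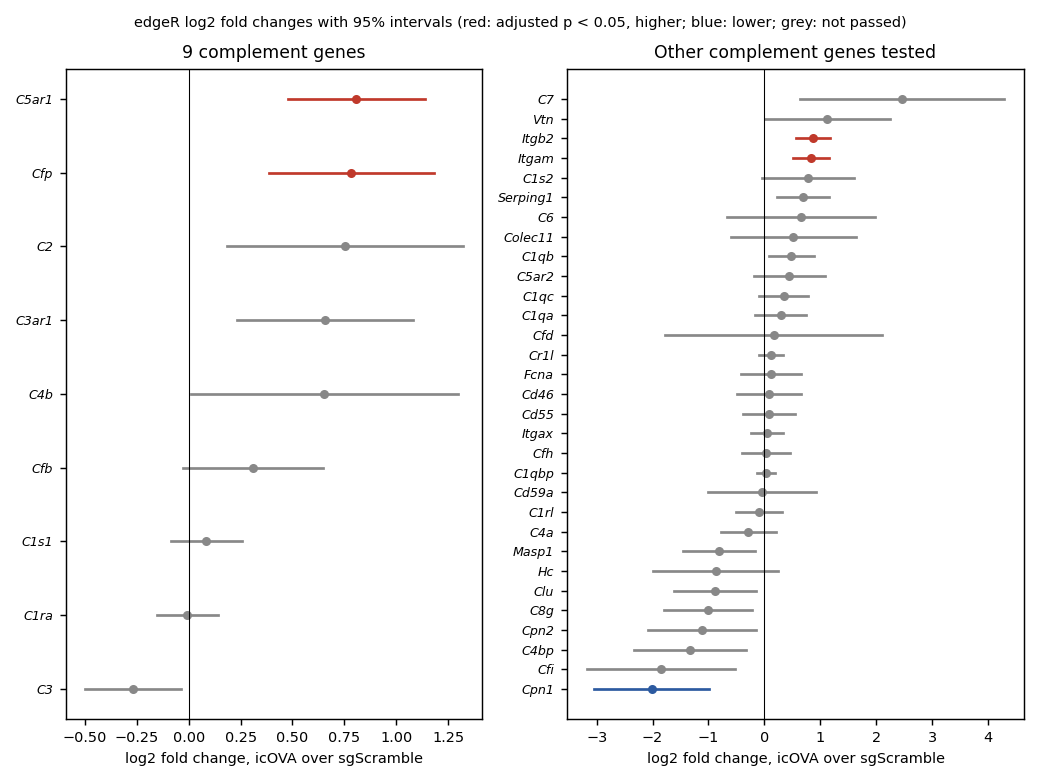
Log2 fold changes, icOVA over sgScramble, of the complement genes with 95% intervals from edgeR. Cfp at 0.78 and C5ar1 at 0.81 are the members that passed the threshold, and C3 at -0.27 lies on the other side of 0.

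Some of these genes share sequence with other genes. Of the stretches of 76 bases in the transcripts, 39.85% of C1ra occur in C1rb, 12.67% of C1s1 in C1s2, 22.3% of C4b in C4a, and 36.9% of C2 and 69.74% of Cfb in Gm20547, a readthrough gene on the same strand. On the opposite strand, Gm16567 overlaps 18.41% of the exonic bases of C1s1, and Zbtb12 overlaps 4.16% of those of C2. How shared reads were counted and whether strand was used are not given in the sources used here, so the values of these 5 genes are uncertain. C3, Cfp, C3ar1 and C5ar1 shared none. The copies themselves were low, with 0 to 12 counts for C1rb, 9 to 31 for C1s2 and 41 to 62 for C4a, against 33 to 443 counts for Gm20547.

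Per kilobase of exon, C3 was the most abundant member in the sgScramble tumors at a mean of 182 CPM per kb, followed by C1s1 at 123, Cfb at 115 and C1ra at 77.1. Cfp was at 28.2 CPM per kb, C4b at 20.4, C3ar1 at 11.3, C2 at 9.85 and C5ar1 at 9.01. C1s1 and Cfb, Cfp and C4b, and the last 3 genes of this order overlapped between tumors, whereas C3 and C1ra were apart from their neighbours. In the icOVA tumors the order was the same except that Cfb, at 143 CPM per kb, stood above C1s1 at 130, and both overlapped the range of C3.

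The profiles over the 7 tumors differed among the members. After each gene was standardized, the root mean square distance was 0.19 between Cfp and C5ar1 and 0.19 between C2 and C3ar1, and the nearest member to C4b was C3ar1 at 0.38. C3 was 1.77 from the mean profile of the members, C1ra 1.15, C1s1 0.92 and Cfb 0.80, where the median gene tested was at 1.33. The remaining members were at 0.39 to 0.68. Of the genes outside the members, the nearest to the mean profile were Nipa2, Plbd1, Mtmr6, Ms4a4c and 2210406H18Rik. Their distances, 0.108 to 0.172, were smaller than that of any member, but these genes were picked as the nearest of all genes tested. The mean profile was made from the members, which by itself lowers their distances to it.

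**Figure D3:**
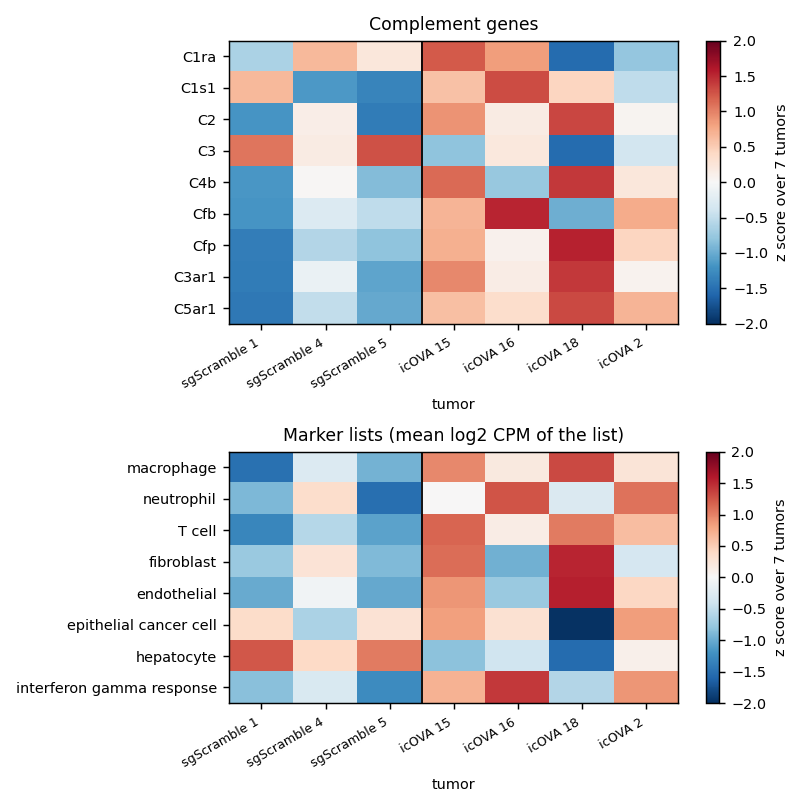
Standardized log2 CPM of the 9 members and of marker lists in each tumor. Cfp, C5ar1, C2, C3ar1 and C4b are each highest in icOVA 18, where C3 is lowest.

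Markers of other cells were summed in each tumor. The summed CPM of 8 macrophage markers was 1634 to 2235 in the sgScramble tumors and 3074 to 4018 in the icOVA tumors. Of these 8, 2 (Cd68 and Lyz2) passed as higher, and 6 were higher at an unadjusted p below 0.05. Of 8 T cell markers, 7 passed as higher, where 3.36% of all genes tested did. Neutrophil markers summed to 55.2 to 112 CPM and 88.4 to 131 CPM, 0 of the 6 tested passed by edgeR (2 were higher at an unadjusted p below 0.05, as were 13.4% of all genes), and Ly6g had 0 to 7 counts. Their part in the values of Cfp, C3ar1 and C5ar1 was not tested. Fibroblast markers, of which 0 of 8 passed by edgeR (1 was higher at an unadjusted p below 0.05), summed to 7179, 15797 and 6720 CPM in sgScramble 1, 4 and 5 and to 26735, 5641, 36839 and 9202 CPM in icOVA 15, 16, 18 and 2. The sum was highest in icOVA 18 and 15, where C4b was also highest, but sgScramble 4 had a larger sum than icOVA 2 with less C4b, and icOVA 16 had the smallest sum with more C4b than sgScramble 1 and 5. The part of these cells in the C4b values was not tested. Endothelial markers summed to 180 to 279 CPM in the sgScramble tumors and 221 to 554 CPM in the icOVA tumors. Of these 6, 0 passed by edgeR and 5 were higher at an unadjusted p below 0.05. Of 8 genes of the interferon gamma response, Socs1 passed as higher, and 4 were higher at an unadjusted p below 0.05. The sum of these 8 was 6879, 7080 and 5801 CPM in sgScramble 1, 4 and 5 and 8283, 9707, 6135 and 8541 CPM in icOVA 15, 16, 18 and 2. Cfb had the same order as this sum among the icOVA tumors, but sgScramble 1 had the lowest Cfb with a larger sum than sgScramble 5 and icOVA 18. The part of this response in Cfb was not tested. Genes listed as hepatocyte markers summed to 75.7 to 149 CPM in the sgScramble tumors and 13.8 to 57.3 CPM in the icOVA tumors. Of these 8 genes, 2 (Alb and Fga) passed as lower, where 2.54% of all genes tested did. At an unadjusted p below 0.05, 6 were lower, as were 13.8% of all genes. In the icOVA tumors Alb had 1 to 12 counts and Fga 0 to 4. Ttr and Apob, which had the highest means of the list, did not pass. Epithelial markers summed to 4360 to 4566 CPM in the sgScramble tumors and 2878 to 4790 CPM in the icOVA tumors, with the lowest sum in icOVA 18. Of the 7 tested, 0 passed by edgeR and 0 were at an unadjusted p below 0.05 in either direction. Whether the tumors held any hepatocytes was not tested, nor was the part of the hepatocyte or epithelial list in the C3 values.

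The receptors and Cfp were also set against Csf1r, the receptor of the macrophage growth factor, a scaling chosen after seeing the data. Per 100 Csf1r counts, C3ar1 stood at 22.4, 21.6 and 22.04 in the sgScramble tumors and at 24.0, 20.8, 24.7 and 19.9 in the icOVA tumors. C5ar1 stood at 10.9, 9.77 and 11.1 against 11.2, 11.4, 12.7 and 12.4. On this scale the groups of C3ar1 and of Cfp overlapped. For C5ar1 every icOVA tumor was still above every sgScramble tumor, by a small margin. The log2 fold change of C3ar1 was 0.021 (adjusted p = 0.918 by edgeR) and that of Cfp was 0.13 (adjusted p = 0.522 by edgeR). That of C5ar1 was 0.17 with a 95% interval of -0.18 to 0.52. C3 stood at 531, 312 and 482 per 100 Csf1r counts in the sgScramble tumors and at 221, 277, 180 and 252 in the icOVA tumors. Csf1r itself had a log2 fold change of 0.62 by TMM (adjusted p = 0.0524 by edgeR). Scaling to it moved the median of all genes to -0.66, close to the -0.66 of C1ra, and 10531 of the 17489 genes tested passed as lower. C3 was at -0.93 (adjusted p = 0.0108 by edgeR). This is -0.27 beyond that median, and the log2 fold change of C3 by TMM was -0.27. With libraries scaled to Ptprc, the median of all genes was -1.10, and Cfp at -0.32 and C5ar1 at -0.27 were above that median but below 0.

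**Figure D4:**
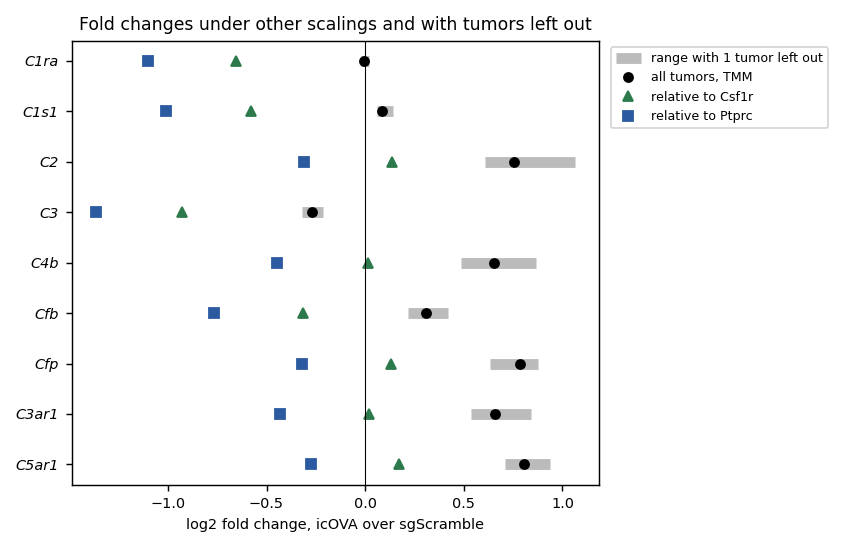
Log2 fold changes of the 9 members with libraries scaled by TMM, to Csf1r and to Ptprc. C5ar1 moves from 0.81 by TMM to 0.17 by Csf1r and -0.27 by Ptprc, scalings that lower the median of all genes to -0.66 and -1.10.

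Of 45 other complement genes, 37 were in the table and 31 were tested, of which 2 were higher, 1 was lower and 28 did not pass, with a median log2 fold change of 0.089. Among all genes tested, 3.36% passed as higher and 2.54% as lower. The 2 complement genes that were higher encode the chains of complement receptor CR3. Itgam was at 116 ± 27.0 CPM (n = 3) and 206 ± 3.32 CPM (n = 4), with a log2 fold change of 0.83 (adjusted p = 0.0271 by edgeR, SE 0.14). Itgb2, the chain that all leukocyte beta-2 integrins share, had a log2 fold change of 0.88 (adjusted p = 0.0241 by edgeR, SE 0.13). The other receptor genes tested in this list, Itgax and C5ar2, had log2 fold changes of 0.049 and 0.44 and did not pass. Cpn1, a chain of the carboxypeptidase that inactivates C3a and C5a, was lower, at 5.97 ± 2.26 CPM and 1.48 ± 0.674 CPM, with a log2 fold change of -2.02 (adjusted p = 0.0422 by edgeR, SE 0.44). Itgam, Itgb2 and Cpn1 passed in 3 of the 7 fits that left out 1 tumor, and not without sgScramble 1, sgScramble 5, icOVA 15 or icOVA 2. In the fits without these tumors, 0 to 6 of all genes passed as higher and 0 to 2 as lower. Over the 7 fits the log2 fold changes were 0.70 to 1.04 for Itgam, 0.77 to 1.06 for Itgb2 and -2.29 to -1.75 for Cpn1. Alb and Fga of the hepatocyte list were also lower, from means of 2.79 and 1.43 CPM in the sgScramble tumors. Any link of the genes of that list to Cpn1 was not tested. None of the 9 initiation genes tested passed by edgeR (1 higher and 1 lower at an unadjusted p below 0.05, where 13.4% and 13.8% of all genes lay), and C1qa, C1qb and C1qc, the chains of C1q, had log2 fold changes of 0.29, 0.48 and 0.34. None of the 4 terminal pathway genes tested passed either (1 higher and 1 lower at an unadjusted p below 0.05).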

How the data were processed

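RNA of 7 s/c tumors was sequenced. The authors deposited raw counts per gene, whole numbers that were not normalized, and the submitters' notes name mm10. The aligner, the counting tool, its strand setting, the annotation and any filter are not given in the sources used here. The labels name polyA RNA and the study's methods a total RNA kit. Symbols, coordinates and exon lengths were taken from GENCODE M21 on GRCm38. The study's methods place s/c tumors in a single flank, so tumors were taken as separate animals. Of the motifs searched, 1 is not reported here.

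Counts were tested with edgeR 4.0.16 in R 4.3.3, after filterByExpr (minimum count 10, minimum total 15) and TMM scaling, with a quasi-likelihood test of icOVA against sgScramble without covariates. Benjamini-Hochberg adjustment ran over all genes tested. The procedure was tested on simulated data. The members and lists were chosen with earlier results of these data known. All members were named, with the other complement genes that passed the threshold, the C1q chains and the 5 nearest profiles. Alternatives were DESeq2 1.42.0, limma-voom (limma 3.58.1), other scalings and filters, robust dispersion, leaving out each tumor, and scaling to Ptprc or, added later, Csf1r.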

Additional observations from a re-analysis of the deposited data

Results flagged for a closer look

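Cfi, which encodes factor I, the protease that inactivates C3b and C4b, had a log2 CPM of 3.05 in icOVA 18, against 5.63 to 6.13 in the other icOVA tumors. The gap was 0.836 of the range of the group, above Dixon's critical value of 0.829 for 4 tumors. Over the 45 values examined, chance would give about 2.25 such tumors. Chosen after its values were seen, Cfi was at 171 ± 21.3 CPM (n = 3) in the sgScramble tumors and 47.5 ± 27.5 CPM (n = 4) in the icOVA tumors, with a log2 fold change of -1.85 (adjusted p = 0.0928 by edgeR, SE 0.57).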

How the results depend on the processing

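Upper quartile and total count scaling, limma-voom, robust dispersion and the other filters called Cfp and C5ar1 and no other member. DESeq2 called 4 members higher (C2, C3ar1, C5ar1 and Cfp), 4 other complement genes higher and 5 lower, and 1553 of all genes higher and 1267 lower, and gave C1ra 0.0011. Scaling to Ptprc called 0 members higher and 4 lower, 1 other complement gene higher and 21 lower, and 70 of all genes higher and 14053 lower. Scaling to Csf1r, added after seeing the data, called 0 and 3 members, 1 and 14 other complement genes, and 223 and 10531 of all genes. Both scalings shift every gene by their construction. Under Ptprc the log2 fold changes that turned were C1s1 -1.01, C2 -0.31, C4b -0.45, Cfb -0.77, Cfp -0.32, C3ar1 -0.43, C5ar1 -0.27, C1qa -0.82, C1qb -0.62, C1qc -0.76, C1s2 -0.32, Itgam -0.23, Itgb2 -0.19, Cd68 -0.28, Lyz2 -0.19, Socs1 -0.64, Nipa2 -0.83, Plbd1 -0.64, Mtmr6 -0.84, Serping1 -0.37 and Gm20547 -0.39. Under Csf1r they were C1s1 -0.58, Cfb -0.32, C1qa -0.37, C1qb -0.16, C1qc -0.31, Socs1 -0.21, Nipa2 -0.38, Plbd1 -0.19 and Mtmr6 -0.39. Leaving out 1 tumor at a time gave 0 to 4 members higher and 0 lower, 0 to 3 other complement genes higher and 0 to 3 lower, and 0 to 1014 of all genes higher and 0 to 716 lower, with C1ra between -0.022 and 0.020. For the other changes the cause was not tested. Tumor numbers were compared between the groups. No paired analysis was possible because no tumor number occurs in both groups.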

Other observations

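Clu, Serping1, C4bp and C7 were chosen after their values were seen. None of the 4 passed the threshold by edgeR, and DESeq2 called all 4. Clu, which encodes clusterin, an inhibitor of the terminal complex, was at 4767 ± 680 CPM (n = 3) in the sgScramble tumors and 2593 ± 979 CPM (n = 4) in the icOVA tumors, with a log2 fold change of -0.88 (adjusted p = 0.126 by edgeR, SE 0.32). Serping1, which encodes the C1 inhibitor, was at 282 ± 77.4 CPM and 457 ± 78.1 CPM, with a log2 fold change of 0.70 (adjusted p = 0.0808 by edgeR, SE 0.20). The log2 fold change of C4bp, which binds C4b, was -1.33 (adjusted p = 0.105), and that of C7, a part of the terminal complex, was 2.46 (adjusted p = 0.0994).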
